A study of Mus musculus with 6 samples.

Results

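The genes of glycogen synthesis and breakdown were examined in whole ventricles of mice that overexpress COUP-TFII in cardiomyocytes. The 9 genes, *Ugp2*, *Gyg*, *Gys1*, *Gbe1*, *Pygm*, *Pygb*, *Phka1*, *Ppp1r3a* and *Ppp1r3c*, were chosen by name out of 18193 genes measured. All 9 were on the Affymetrix mouse genome arrays, with 18 of 34945 probe sets that name a single gene. The CTRL group was 3 Myh6-MCM mice and the OE group 3 Myh6-MCM; CAG-S-COUP-TFII mice, 1 array each. Both groups had a mixed 129SvEv/C57Bl6/J background, an age of 2.5 months and tamoxifen at 40 mg per kg per day for 3 days, begun at 2 months, and were collected 16 days after the first dose. The array methods instead give an age of 2 months, and the methods state that animals were male unless noted. Myh6-MCM is a Cre recombinase, made in cardiomyocytes from the *Myh6* promoter and active only with tamoxifen. In OE mice it switches on COUP-TFII from the CAG-S-COUP-TFII allele, so other cells of the ventricle carry the allele without recombining it. CTRL mice carry the Cre and received tamoxifen too, and no group without either was analysed here.

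Glycogen is the glucose store of muscle, and the heart uses it as a reserve fuel when work rises or oxygen falls. Glucose is activated to UDP-glucose, chained onto a protein primer by glycogen synthase and branched. Phosphorylase, which phosphorylase kinase switches on, releases it again as glucose-1-phosphate, and protein phosphatase 1, held on glycogen by targeting subunits, reverses that switch and activates the synthase.

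All values are log2 expression relative to the median that each probe set had over all 6 arrays, so they show differences between arrays and no level of a gene. Because this median is 0, the innermost CTRL and OE arrays of a probe set whose groups do not overlap mirror each other around 0. Of the 6 probe sets of *Nr2f2*, the gene of COUP-TFII, one lay between −1.99 and −1.60 in CTRL and between 1.60 and 1.91 in OE, an 11.2-fold rise. The other 5 were not called (log2 changes from −0.34 to −0.13, adjusted p from 0.075 to 0.566). Any 2 arrays of one group lay at a root mean square distance of 0.194 to 0.233 over all genes, and any 2 of different groups at 0.375 to 0.427.

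Of the 9 glycogen genes, 1 was higher and 2 were lower in OE ventricles at an adjusted p below 0.05 from limma. *Gbe1*, the branching enzyme, rose 1.64-fold, while *Pygm*, the muscle phosphorylase, fell 1.31-fold and *Ppp1r3a*, the striated muscle targeting subunit of protein phosphatase 1, fell 1.45-fold. Among all genes 26.7% passed, 14.9% being higher and 11.8% lower, so 3 of 9 is near the share of any gene. The median log2 change over the 9 genes was 0.09, against −0.03 over all genes. The median size of the change, whatever its sign, was 0.123, against 0.167 over all genes. The groups did not overlap for 4 of the 9 genes, against 45.6% of all genes. The OE arrays lay above the CTRL arrays for 2 of them (22% of all genes) and below for 2 (23.6% of all genes). Of the 18 probe sets 2 were higher and 2 lower, and the groups of 3 lay with OE above and of 2 with OE below. Among all probe sets 24.4% passed, 13.9% higher and 10.4% lower, and OE lay above in 21.1% and below in 21.8%. Counts over all genes were 2709 higher and 2152 lower, and 1409 and 8608 when the median of 43 ribosomal protein genes was set equal on every array. The 43 ribosomal genes were not steady themselves, with a median log2 change of 0.21 in OE. OE lay above CTRL for 35 of them, and 16 were called higher and 1 lower. This ribosomal centring therefore moved the median of all genes by −0.20. It kept the calls of *Gbe1*, *Pygm* and *Ppp1r3a*, though such a shift could only enlarge the 2 falls.

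In whole tissue, fewer cells of a type and less RNA per cell cannot be told apart, and markers of several cell types moved in the same arrays. Of 15 cardiomyocyte markers 9 were lower and 2 higher, and their mean ran from 0.151 to 0.224 in CTRL arrays and from −0.245 to −0.201 in OE arrays. Of 12 macrophage markers 7 rose and 0 fell (mean −0.436 to −0.158 in CTRL, 0.117 to 0.421 in OE). Of 12 fibroblast markers 6 were higher and 2 lower (−0.582 to −0.193 against 0.164 to 0.327), and of 8 smooth muscle markers 4 were higher and 2 lower (−0.498 to −0.261 against 0.318 to 0.425). The smooth muscle mean leans on 1 gene, whose log2 change of 4.94 was the largest of all genes. The median change of that list was 0.27, and OE lay above CTRL for 4 of the 8 and below for 3. Of 12 endothelial markers 6 fell and 0 rose (0.0924 to 0.365 against −0.188 to −0.0120). Their part in the changes of the glycogen genes was not tested. As the values hold no level, they cannot show whether a marker was present or absent.

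The sequence before the start site is shown for the 3 genes that were called, because COUP-TFII is a nuclear receptor that binds the half-site AGGTCA and its variants. Each is the 250 bases before the start in RefSeq annotation of GRCm38.p6, written 5′ to 3′ on the strand of the gene, with matches to GGGTCA or TATAAA on either strand in capitals. *Pygm* is on the plus strand at chr19:6384158-6384407, *Ppp1r3a* on the minus strand at chr6:14755275-14755524 and *Gbe1* on the plus strand at chr16:70313699-70313948.
Pygm: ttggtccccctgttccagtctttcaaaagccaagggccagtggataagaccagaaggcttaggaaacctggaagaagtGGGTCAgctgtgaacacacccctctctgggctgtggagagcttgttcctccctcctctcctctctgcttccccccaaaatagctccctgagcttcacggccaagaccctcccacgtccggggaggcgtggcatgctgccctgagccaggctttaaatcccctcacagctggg
Ppp1r3a: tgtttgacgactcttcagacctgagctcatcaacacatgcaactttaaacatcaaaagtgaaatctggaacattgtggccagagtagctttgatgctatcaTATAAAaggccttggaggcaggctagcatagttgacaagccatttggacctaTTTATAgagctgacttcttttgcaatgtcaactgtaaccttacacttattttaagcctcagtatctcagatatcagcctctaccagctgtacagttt
Gbe1: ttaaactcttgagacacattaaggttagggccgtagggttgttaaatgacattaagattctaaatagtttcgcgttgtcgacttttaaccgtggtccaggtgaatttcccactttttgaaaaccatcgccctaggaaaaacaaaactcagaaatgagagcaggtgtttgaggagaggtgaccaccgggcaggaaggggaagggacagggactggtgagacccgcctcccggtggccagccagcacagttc

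In *Pygm* the letters GGGTCA began 172 bases before the start. In *Ppp1r3a* TATAAA began 149 bases before the start, and its reverse complement, TTTATA, 97 bases before it. None of the motifs searched lay in the *Gbe1* stretch. The search covered all 10 start regions of the 9 genes, each 300 bases long and reaching 50 bases past the start, on both strands. AGGTCA was in 0 of the 10 and in 16.3% of all 32851 start regions. GGGTCA was in 2 of 10, those of *Pygm* and *Phka1*, and in 13.7% of all. CACGTG was in 2 of 10, those of *Gyg* and *Ppp1r3c*, and in 7.15% of all, and TATAAA was in 1 of 10 and in 13.6% of all. The GC content of the 250 bases was 40.4% for *Ppp1r3a*, 48.8% for *Gbe1* and 58.4% for *Pygm*, and 59.6% to 73.6% for the others. These matches describe letters and not binding, and no match says only that the letters are not in this window.

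The genes that build glycogen differed along the route. *Gbe1*, which places the branches, was at −0.26, −0.46 and −0.32 in the CTRL arrays and at 0.35, 0.49 and 0.26 in the OE arrays. All 3 OE arrays lay above all 3 CTRL arrays, with a CTRL mean of −0.34 ± 0.11 (SD, n = 3) and an OE mean of 0.37 ± 0.12 (SD, n = 3). The log2 change was 0.71 (SE 0.089, 95% interval 0.50 to 0.92, adjusted p = 0.00149 from limma). Against the median of all genes the rise was 0.74. It rests on 1 probe set. The intervals given here are those of single genes, not adjusted for the number of genes tested.

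*Gys1*, the muscle glycogen synthase, was at −0.16, 0.050 and −0.30 in CTRL and at 0.14, 0.067 and 0.12 in OE. The OE arrays lay above the CTRL arrays, with CTRL 2 close below OE 2, and the log2 change of 0.24 (SE 0.096, interval 0.023 to 0.47) did not pass the test (adjusted p = 0.0965). Its 2 probe sets disagreed. On the one whose probes match a single transcript the CTRL arrays were at −0.17, −0.14 and −0.36 and the OE arrays at 0.28, 0.14 and 0.21, a log2 change of 0.43 (SE 0.092, adjusted p = 0.0129 over all probe sets). On the other, of the _s_at kind whose probes match several transcripts, the log2 change was 0.057 (adjusted p = 0.772) and the groups overlapped. *Gys1* was called higher on the first probe set alone, whether it was chosen by leaving out the _s_at kind (log2 0.43, adjusted p = 0.00915) or as the most variable (log2 0.43, adjusted p = 0.0139), and without CTRL 2 (log2 0.34, adjusted p = 0.033). Choosing the most variable probe set of a gene favours a group difference, here and for the genes below. After ribosomal centring the log2 change of *Gys1* was 0.048 (adjusted p = 0.684).

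Upstream of the synthase the values stayed close together. *Ugp2*, whose enzyme makes UDP-glucose, was at 0.011, −0.12 and 0.013 in CTRL and at 0.0085, 0.051 and −0.13 in OE. The groups overlapped, and the log2 change of 0.0072 had a 95% interval of −0.17 to 0.19 (adjusted p = 0.956). Its 5 probe sets gave log2 changes from −0.065 to 0.060, and none was called. *Gyg*, the glycogenin that primes the chain, ran from −0.21 to 0.039 in CTRL and from −0.045 to 0.12 in OE, with a log2 change of 0.090 (interval −0.11 to 0.29, adjusted p = 0.472). Both directions turned after ribosomal centring, to −0.19 for *Ugp2* and −0.11 for *Gyg*.

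**Figure D1:**
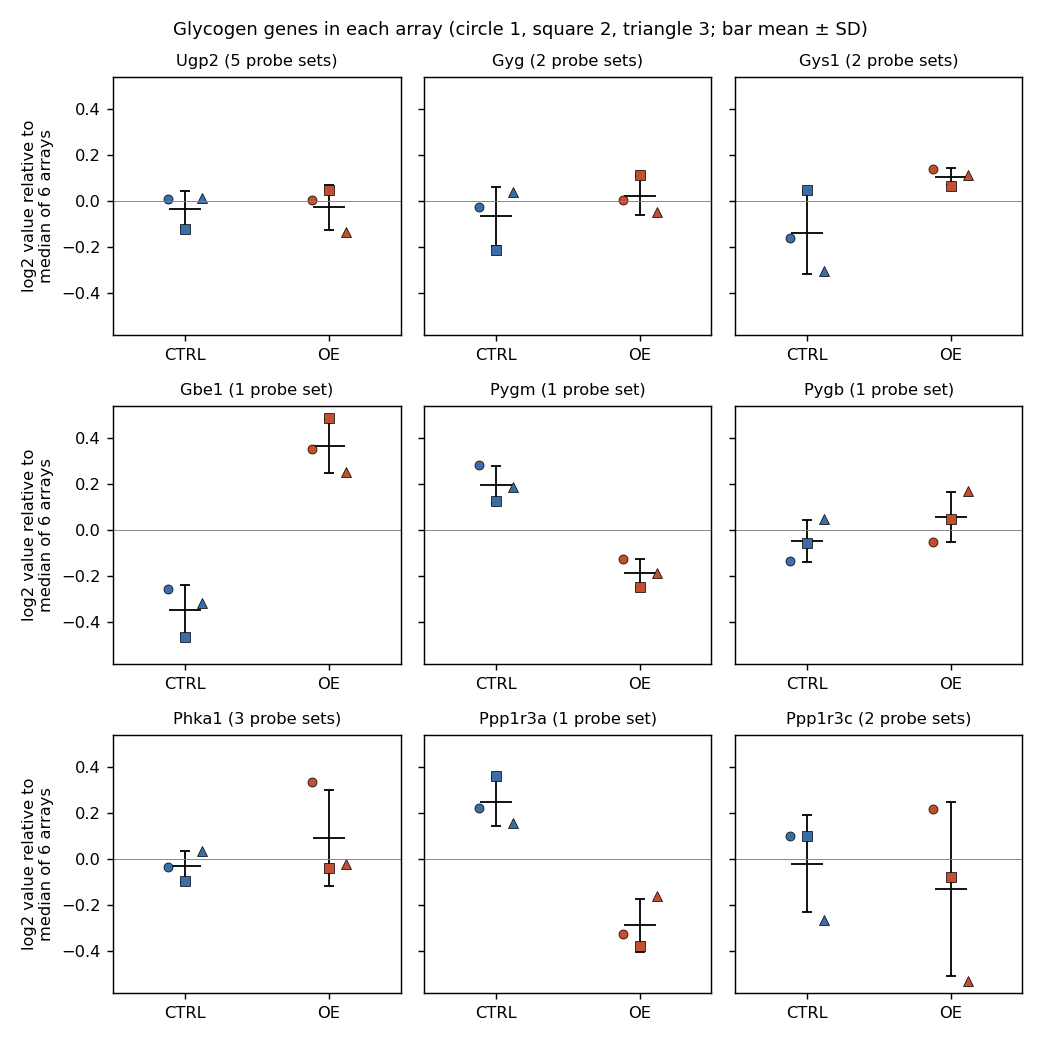
Log2 value of each of the 9 glycogen genes, relative to the median of the 6 arrays and averaged over its probe sets, in the 3 CTRL (blue) and 3 OE (red) arrays, with group means and SDs. *Gbe1* lies at −0.46 to −0.26 in CTRL and 0.26 to 0.49 in OE, *Pygm* and *Ppp1r3a* are below CTRL in all 3 OE arrays, and the groups of the other genes overlap except for *Gys1*.

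Of the genes that break glycogen down, the muscle phosphorylase was lower. *Pygm* was at 0.28, 0.13 and 0.19 in CTRL and at −0.13, −0.25 and −0.19 in OE. All OE arrays lay below all CTRL arrays, at means of 0.20 ± 0.079 (SD, n = 3) and −0.19 ± 0.061 (SD, n = 3). The log2 change was −0.39 (SE 0.073, interval −0.55 to −0.22, adjusted p = 0.00801 from limma). It rests on 1 probe set.

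*Pygb*, the brain phosphorylase, which the fetal heart also makes, was at −0.13, −0.053 and 0.049 in CTRL and at −0.049, 0.051 and 0.17 in OE. The groups overlapped, and its log2 change of 0.10 (interval −0.092 to 0.30, adjusted p = 0.393) was not called. After ribosomal centring the change was −0.093. *Phka1*, the muscle regulatory α subunit of phosphorylase kinase, ran from −0.096 to 0.037 in CTRL and was at 0.33, −0.039 and −0.019 in OE. Only OE 1 stood above the CTRL arrays, and the log2 change was 0.12 (adjusted p = 0.432), 0.0023 without OE 1 (adjusted p = 0.987) and −0.073 after ribosomal centring. Its 3 probe sets gave −0.059, 0.17 and 0.26, and none was called.

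The targeting subunits hold protein phosphatase 1 on glycogen. *Ppp1r3a* was at 0.22, 0.36 and 0.16 in CTRL and at −0.33, −0.38 and −0.16 in OE. All OE arrays lay below all CTRL arrays, at means of 0.25 ± 0.10 (SD, n = 3) and −0.29 ± 0.11 (SD, n = 3). The log2 change of −0.54 (SE 0.087, interval −0.74 to −0.33, adjusted p = 0.00452 from limma) was the largest fall among the 9 genes, on 1 probe set.

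*Ppp1r3c*, which encodes the widely expressed subunit PTG, varied most between animals. It was at 0.10, 0.10 and −0.26 in CTRL and at 0.22, −0.077 and −0.53 in OE. The highest and the lowest array were both of the OE group, with an SD of 0.38 (n = 3) against 0.21 (n = 3) in CTRL. The log2 change of −0.11 had an interval of −0.55 to 0.33 (adjusted p = 0.695), so a fall as large as that of *Ppp1r3a* lies just inside it. Without OE 3 the change was 0.090 (adjusted p = 0.691). On both of its probe sets OE 1 was the highest and OE 3 the lowest of the OE arrays, and their log2 changes were −0.22 and −0.00072.

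**Figure D2:**
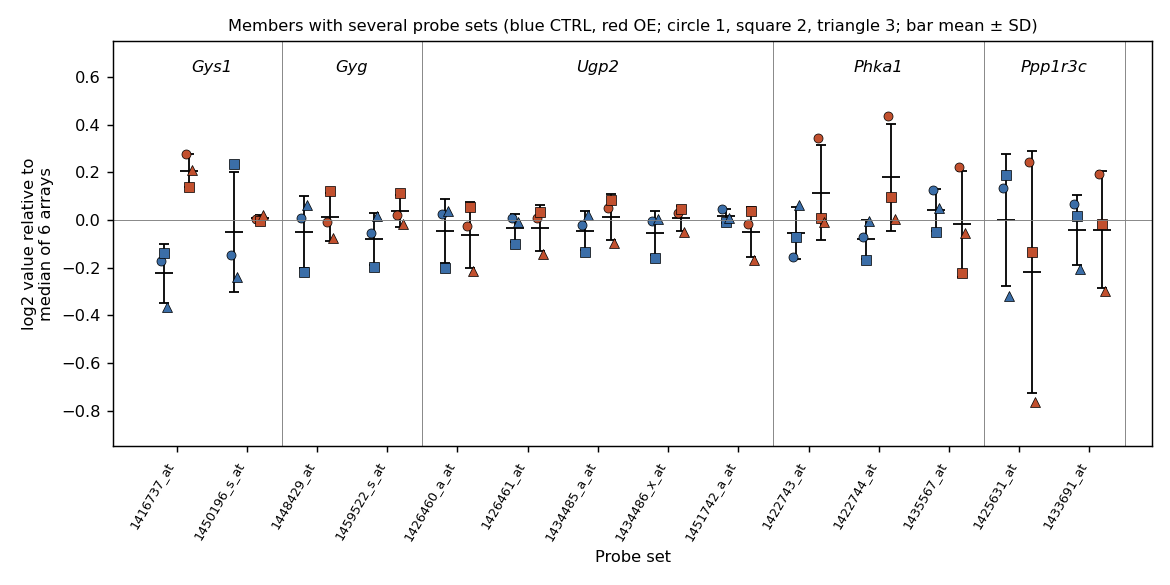
Log2 values, relative to the median of the 6 arrays, of each probe set of the 5 members with more than 1, in the 3 CTRL (blue) and 3 OE (red) arrays, with group means and SDs. The groups separate on the *Gys1* probe set that matches a single transcript (log2 change 0.43) and not on the _s_at one (0.057), and both *Ppp1r3c* probe sets spread widely within groups.

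Differences between 2 members within an array do not depend on how arrays are scaled. *Pygb* minus *Pygm* was −0.42, −0.18 and −0.14 in CTRL and 0.077, 0.30 and 0.36 in OE. The balance of the brain over the muscle form was thus higher in every OE array, by 0.49 (SE 0.12) or 1.40-fold (exact permutation p = 0.1, two-sided). Of the 2 forms only *Pygm* was called (log2 change −0.39), while *Pygb*, at 0.10, was not. *Gys1* minus *Pygm*, the synthase against the phosphorylase, was −0.44, −0.077 and −0.49 in CTRL and 0.27, 0.31 and 0.30 in OE. It was higher in every OE array by 0.63 (SE 0.13), or 1.55-fold (exact permutation p = 0.1), and by 0.82 with the single-transcript probe set alone for *Gys1*. In every OE array *Gys1* lay above and *Pygm* below the CTRL arrays, so this difference had to separate the groups. The separation is therefore no result beyond those of the 2 genes. *Ppp1r3c* minus *Ppp1r3a* was −0.12, −0.26 and −0.42 in CTRL and 0.55, 0.30 and −0.37 in OE, where OE 3 lay among the CTRL arrays (difference 0.43, SE 0.29, exact permutation p = 0.3). With 3 arrays against 3 the smallest p this test can give is 0.1, so none of the 3 comparisons could pass, also without adjustment.

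**Figure D3:**
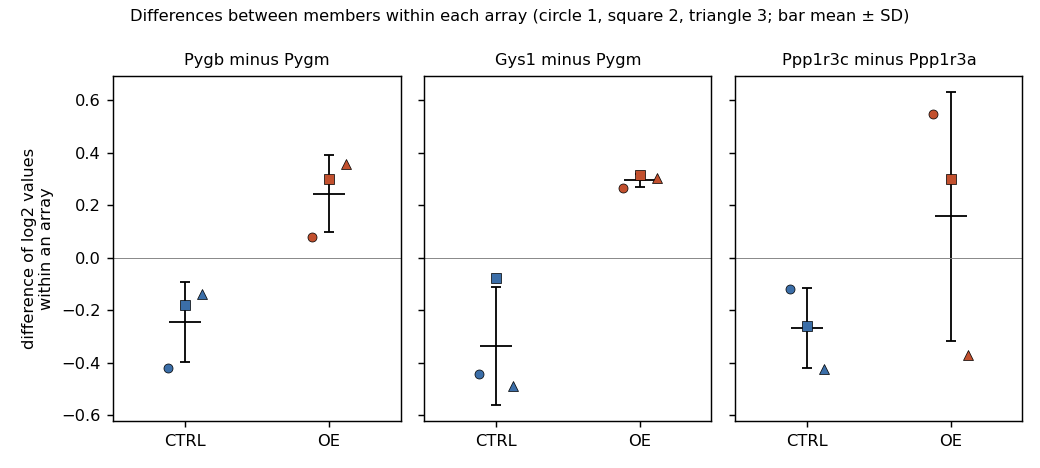
Difference of the log2 values of 2 members within each of the 3 CTRL (blue) and 3 OE (red) arrays, with group means and SDs. *Pygb* minus *Pygm* and *Gys1* minus *Pygm* are above all CTRL arrays in all 3 OE arrays, and for *Ppp1r3c* minus *Ppp1r3a* the groups overlap.

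Of 31 other genes of glycogen turnover that were listed, 27 were measured. The 4 not measured were all in the list of breakdown and phosphorylase kinase genes, of which 5 of 9 were measured. Of the 27, 6 were higher and 2 lower in OE, where 14.9% of all genes were higher and 11.8% lower. After ribosomal centring 4 were higher and 10 lower, where 8608 of all 18193 genes were lower. The median log2 change of the 27 was −0.0049, against −0.03 over all genes. The OE arrays lay above the CTRL arrays for 7 of them and below for 2, against 22% and 23.6% of all genes.

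The largest change was that of *Stbd1*, whose protein binds glycogen and tethers it for uptake into lysosomes. *Stbd1* was at −1.16, −0.82 and −1.07 in CTRL and at 1.12, 1.03 and 0.82 in OE. It was 4.03-fold higher (log2 2.01, SE 0.11, adjusted p = 9.9e-05 from limma), and every OE array lay above every CTRL array. *Gaa*, the acid glucosidase that digests glycogen inside lysosomes, was at 0.060, 0.19 and 0.062 in CTRL and at −0.067, −0.14 and −0.097 in OE. Its OE arrays were all below CTRL, but the log2 change of −0.21 did not pass (adjusted p = 0.0615), and it did after ribosomal centring (log2 −0.40, adjusted p = 0.00388).

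The phosphorylase kinase subunits moved in both directions. *Phkg2*, the catalytic γ subunit known from liver and testis, was at −0.43, −0.25 and −0.29 in CTRL and at 0.49, 0.25 and 0.46 in OE (log2 0.73, SE 0.090, adjusted p = 0.00142). *Phkg1*, the muscle γ subunit, was at 0.74, 0.61 and −0.026 in CTRL and at 0.026, −0.57 and −1.04 in OE (log2 −0.97, SE 0.29, adjusted p = 0.0407), with CTRL 3 just below OE 1. Both of its probe sets were called lower. However, 1 is of the _x_at kind, which an alternative setting left out, and on the other the groups overlapped (adjusted p = 0.043 from limma). The *Phkg1* call did not hold by one-way analysis of variance, at an adjusted p of 0.17, with array weights (adjusted p = 0.0513) and without CTRL 1, CTRL 2, OE 2 or OE 3 (adjusted p from 0.0969 to 0.123). *Phkb*, the β subunit, had a log2 change of 0.28 (adjusted p = 0.0275). That call did not hold by one-way analysis of variance, at an adjusted p of 0.0555, after ribosomal centring (log2 0.080, adjusted p = 0.356), with the replicate number as a block (adjusted p = 0.0598) or without CTRL 2, CTRL 3, OE 1 or OE 3 (adjusted p from 0.0681 to 0.0796). *Phka2*, the liver α subunit, had a log2 change of 0.25 (adjusted p = 0.104). It was called higher without OE 2 (log2 0.36, adjusted p = 0.0238) and on its most variable probe set (log2 0.47, adjusted p = 0.0159), a choice that favours a group difference. Its other 2 probe sets were not called.

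*Pygl*, the liver phosphorylase, was at −0.52, −0.29 and −0.13 in CTRL and at 0.58, 0.13 and 0.58 in OE. It was higher in every OE array (1.67-fold, log2 0.74, SE 0.15, adjusted p = 0.00983), though not by one-way analysis of variance (adjusted p = 0.077). The muscle form was thus lower and the liver form higher, while the brain form did not pass the test.

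Among the partners of protein phosphatase 1, *Ppp1r1a*, its inhibitor 1, was at −0.33, −0.57 and −0.25 in CTRL and at 0.25, 0.72 and 0.95 in OE, a 2.04-fold rise (log2 1.03, SE 0.17, adjusted p = 0.00519) that one-way analysis of variance did not call (adjusted p = 0.0603). The targeting subunit gene *Ppp1r3f* was higher by 0.32 (SE 0.075, adjusted p = 0.0174). That call did not hold after ribosomal centring (log2 0.13, adjusted p = 0.183) or without CTRL 1 or OE 1 (adjusted p of 0.0558 and 0.0638). The other targeting subunits had log2 changes of −0.19 for *Ppp1r3d* (adjusted p = 0.205), −0.11 for *Ppp1r3e*, −0.070 for *Ppp1r3b* and −0.0049 for *Ppp1r3g*, and none passed. After ribosomal centring *Ppp1r3d* (log2 −0.39, adjusted p = 0.0182) and *Ppp1r3e* (log2 −0.31, adjusted p = 0.033) were called lower. Of the catalytic subunits, *Ppp1ca* had a log2 change of 0.19 (adjusted p = 0.0824), *Ppp1cc* one of 0.19 (adjusted p = 0.131) and *Ppp1cb* one of −0.036. *Ppp1r2*, inhibitor 2, had one of −0.093, and was called lower after ribosomal centring (log2 −0.29, adjusted p = 0.0193).

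*Gsk3a*, a kinase that inactivates glycogen synthase, was at 0.13, 0.13 and 0.067 in CTRL and at −0.067, −0.31 and −0.23 in OE (log2 −0.31, SE 0.080, adjusted p = 0.0264). It did not hold by one-way analysis of variance, at an adjusted p of 0.0706, or without CTRL 1, CTRL 2, OE 2 or OE 3 (adjusted p from 0.0712 to 0.0764). *Gsk3b*, its close relative, had a log2 change of −0.095 (adjusted p = 0.361) over 6 probe sets, of which 1 was called higher (log2 0.47) and 2 lower (log2 −0.40 and −0.35). As a gene it was called higher on its most variable probe set (log2 0.47, adjusted p = 0.0094) and lower after ribosomal centring (log2 −0.29, adjusted p = 0.0135). The phosphoglucomutase genes *Pgm1* (log2 0.091) and *Pgm2* (log2 0.065) did not pass. Neither did their relatives *Pgm5* (log2 0.053) and *Pgm2l1* (log2 −0.41, adjusted p = 0.0933), nor the liver synthase *Gys2* (log2 −0.10). *Pgm2l1* was called lower without OE 3 (log2 −0.56, adjusted p = 0.0383) and after ribosomal centring (log2 −0.61, adjusted p = 0.0129), which also called *Gys2* lower (log2 −0.30, adjusted p = 0.0156). *Epm2a* (log2 −0.21), which encodes the glycogen phosphatase laforin, *Nhlrc1* (log2 −0.012), which encodes its partner malin, and *Epm2aip1* (log2 0.15), whose protein binds laforin, did not pass either. *Epm2a* was called lower without CTRL 3 (log2 −0.38, adjusted p = 0.0204) and after ribosomal centring (log2 −0.41, adjusted p = 0.0371), and *Epm2aip1* higher on its most variable probe set (log2 0.67, adjusted p = 0.0257). The other 3 probe sets of *Epm2aip1* gave log2 changes of −0.29, −0.30 and 0.52, and none was called.

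**Figure D4:**
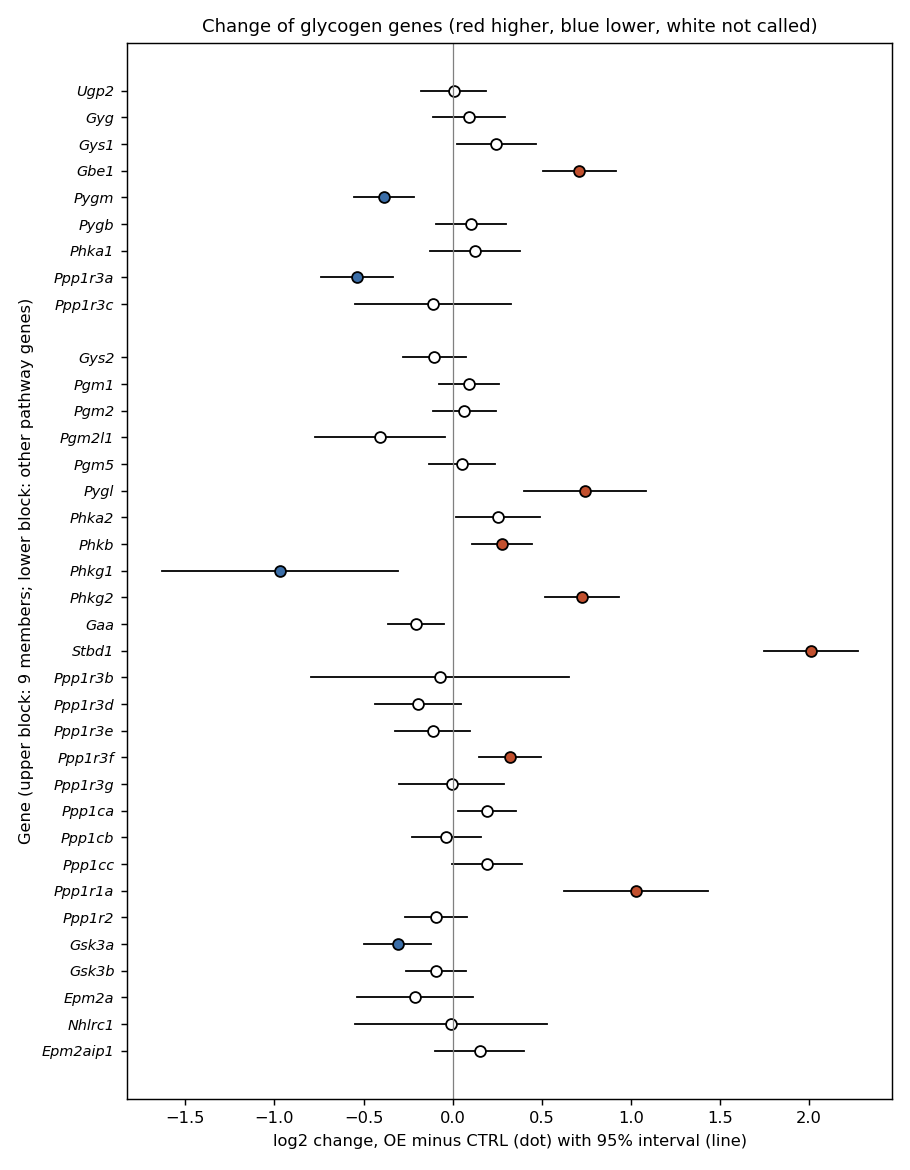
Log2 change in OE relative to CTRL, from limma with its 95% interval, for the 9 members (upper block) and 27 other genes of glycogen turnover (lower block), 3 arrays per group, with red for called higher, blue for called lower and white for not called. *Stbd1* at 2.01 and *Ppp1r1a* at 1.03 are farthest to the right and *Phkg1* at −0.97 farthest to the left, while *Gbe1* (0.71), *Pygm* (−0.39) and *Ppp1r3a* (−0.54) are the members called.

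For the members with the largest rise and the largest fall, the 4 genes with the most similar values over the 6 arrays were sought by root mean square distance. Closest to *Gbe1* were *Habp4* (distance 0.0392, log2 change 0.73), *Txndc5* (0.0496, log2 0.70), *Coro1a* (0.0509, log2 0.64) and *Nudcd2* (0.0520, log2 0.72). Closest to *Ppp1r3a* were *Npepl1* (0.0457, log2 −0.53), *Ganc* (0.0463, log2 −0.56), which encodes a neutral α-glucosidase, and *Acadm* (0.0560, log2 −0.53) and *Hadha* (0.0565, log2 −0.51), which encode enzymes of fatty acid β-oxidation. The distances are a description over 6 arrays that share the group difference.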

How the data were processed

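RNA of whole ventricles from 3 CTRL and 3 OE mice was hybridised to Affymetrix mouse genome arrays, 1 per animal. In GeneSpring GX the authors applied RMA summarization, quantile normalization and a baseline set to the median of all samples. The values deposited by the authors are read as log2, the scale of RMA, though their base is not given in the sources used here. They ran from −4.29 to 3.54. Of 45101 probe sets, 932 name several genes, 9211 have no gene here and 64 are array controls (some counted in both of the last classes), and all of these were left out. The remaining 34945 were averaged per gene (18193 genes). A filter on dim probe sets was not possible because the values hold no level.

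For OE against CTRL, lmFit and eBayes (limma 3.58.1, R 4.3.3) were run with no covariate. The p-values are two-sided and were adjusted by Benjamini-Hochberg over all genes, or over all probe sets, and a call needs an adjusted p below 0.05. SE comes from the moderated fit. One-way analysis of variance, which the methods name, was an alternative, since limma shares the variance between genes. The script was tested on simulated data. The number of arrays limits the precision. Differences between members within an array were compared by an exact permutation test.

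The members and lists were chosen with earlier results of these data known, and lists were written from textbook knowledge. The text names the 9 members, all measured genes of the other glycogen list, *Nr2f2* and, for 2 members, the 4 genes nearest to each. Of the marker lists it gives counts and ranges. Alternatives were one-way analysis of variance, the replicate number as a block, weights per array, no _x_at or _s_at probe sets, the most variable probe set of each gene, centring on the array median or on ribosomal protein genes, leaving out each array, an adjusted p below 0.01 and a fold limit of 1.2. All 9 members matched the promoter table of RefSeq. Python 3.11.15 with pandas 2.3.3, scipy 1.17.1 and matplotlib 3.10.9 was used.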

Additional observations from a re-analysis of the deposited data

How the results depend on the processing

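*Gbe1*, *Pygm* and *Ppp1r3a* kept their direction and their calls under all 13 other settings, with adjusted p up to 0.0258, 0.0319 and 0.037 and log2 changes of 0.51 to 0.77, −0.58 to −0.34 and −0.73 to −0.48. Not all of these settings could have turned the calls. Each of these genes has 1 probe set, so the 2 choices of probe sets left its log2 change as it was. Ribosomal centring moves every change by −0.20 and could only enlarge the falls of *Pygm* and *Ppp1r3a*. Members called higher numbered 2 without _x_at and _s_at probe sets, 2 with the probe set of largest variance and 1 to 2 on leaving out 1 array (2 without CTRL 2), the second being *Gys1*, and 2 members were lower throughout. Over all genes the calls were 2541 higher and 2061 lower without _x_at and _s_at probe sets. They were 3351 and 2400 with the probe set of largest variance, a choice that favours a group difference, and 1984 and 1438 without CTRL 2. *Gys1* minus *Pygm* was 0.82 with either choice of probe sets.

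Over all genes, one-way analysis of variance called 1437 higher and 1125 lower, centring on ribosomal protein genes 1409 and 8608, an adjusted p below 0.01 1305 and 768, and leaving out 1 array 1830 to 2371 and 1243 to 1731 (lower: 1400 without CTRL 1, 1243 without OE 1, 1402 without OE 3). Of the other glycogen genes, one-way analysis of variance called 3 higher and 0 lower (7 and 2 at an unadjusted p below 0.05), array weights 1 lower, centring on ribosomal protein genes 10 lower, and an adjusted p below 0.01 from limma 0 lower (4 at an unadjusted p below 0.05). With the probe set of largest variance 9 of these genes were higher and 2 lower. Leaving out 1 array gave 4 to 7 higher and 0 to 3 lower, with 0 lower without CTRL 1, CTRL 2 or OE 2 (4, 2 and 2 at an unadjusted p below 0.05) and 1 without OE 3.

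Directions turned for genes that limma did not call. With arrays centred on ribosomal protein genes the log2 change was −0.19 for *Ugp2*, −0.11 for *Gyg*, −0.093 for *Pygb*, −0.073 for *Phka1*, −0.11 for *Pgm1*, −0.13 for *Pgm2*, −0.14 for *Pgm5*, −0.0061 for *Ppp1ca*, −0.0045 for *Ppp1cc* and −0.045 for *Epm2aip1*. With the probe set of largest variance it was −0.017 for *Ugp2* and 0.47 for *Gsk3b* (adjusted p = 0.0094; −0.29 and adjusted p = 0.0135 after centring on ribosomal protein genes), and without _x_at and _s_at probe sets −0.0060 for *Ugp2*. For *Ppp1r3g* it was 0.0085 with array weights and 0.0079 with centring on the array median, and for *Nhlrc1* 0.0085 and 0.0013. Leaving out 1 array gave −0.037 to 0.062 for *Ugp2*, −0.28 to 0.090 for *Ppp1r3c*, −0.0062 to 0.10 for *Pgm5*, −0.38 to 0.28 for *Ppp1r3b*, −0.10 to 0.14 for *Ppp1r3g*, −0.10 to 0.020 for *Ppp1cb* and −0.20 to 0.25 for *Nhlrc1*. Centring on ribosomal protein genes moves the log2 change of every gene by the same −0.20, which turns small rises into falls. The cause of the other turns was not tested.

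Same-numbered arrays did not deviate together over all genes (r of 0.0697, −0.117 and 0.0253), and differently numbered ones had r from −0.113 to 0.0848. This cannot show whether the animals were paired. The replicate number as a block changed the SE from 0.29 to 0.10 for *Phkg1* (adjusted p = 0.00383 from limma). It changed the SE from 0.19 to 0.098 for *Ppp1r3c* and from 0.089 to 0.10 for *Gbe1*. With the replicate number as a block, 2369 genes were higher and 1679 lower, members stayed at 1 and 2, and of the other glycogen genes 5 were higher and 2 lower, with *Phkb* lost (adjusted p = 0.0598). Values without a level leave the signal over background unknown, and the members called rest on 1 probe set each.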
